A study of Homo sapiens with 3 samples.

Results

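The comparison described here is DLX5 siRNA1 against the negative control in KYSE140 cells, an established human cell line of esophageal squamous cell carcinoma origin. Its members are all genes with at least 1 FPKM in the mean of either sample, which were 12038 of the 17219 genes with a value; the other 5181 lay below 1 FPKM in both. FPKM is the number of sequenced fragments scaled to transcript length and depth. RNA was sequenced from 3 samples, 1 per group: cells transfected with a negative control, with DLX5 siRNA1 and with DLX5 siRNA2, all grown in RPMI1640 with 10% FBS. The sources used here do not give the time after transfection, the dose or the siRNA sequences. siRNA2 serves only to say what siRNA1 did by itself. Each sample has 2 replicate columns that no label ties to separate cultures, so they count as repeat values of 1 sample and no p-value over samples can be given. Depth, estimated from the step size of low FPKM in short genes, was 17750000 to 18750000 reads per column.

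DLX5 belongs to the distal-less homeobox factors. It binds DNA at short sites with a TAATTA-like core and is known from craniofacial, bone and limb development. In squamous epithelia, a program of keratins, adhesion genes and transcription factors such as TP63, SOX2 and NOTCH1 sets the basal and the differentiating state. An siRNA is a short double-stranded RNA whose guide strand pairs over its whole length with the intended transcript. Guide strands can also lower other transcripts by pairing of the seed, their bases near the 5′ end, with sites in 3′ UTRs, in the manner of a microRNA.

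The targeted gene was lower. DLX5 (hg19 chromosome 7, 96649702 to 96654143, minus strand) read 13.1 and 12.9 FPKM in the control columns, 3.65 and 3.61 with siRNA1 and 3.27 and 3.23 with siRNA2. Its log2(FPKM + 1) was -1.60 relative to the control with siRNA1, a 3.58-fold lower FPKM, and -1.72 with siRNA2. No siRNA1 column came near a control column. DLX3, a regulator of epidermal differentiation, read 2.54 and 2.62 FPKM in the control and 0.37 and 0.41 with siRNA1. DLX2 read 2.88 and 2.75 against 0.78 and 0.86 FPKM, and DLX6, the neighbour of DLX5, 10.2 and 9.29 against 7.97 and 7.8 FPKM, a log2 difference of -0.27. DLX6 is overlapped by an antisense gene, and no source used here gives the strand setting. All 8 tested DLX and MSX genes lay below the control, with a median log2 difference of -0.66. By log2(FPKM + 1), 3 of them were at least 2-fold lower (DLX2, DLX3 and DLX5). DLX5 is the siRNA target itself. Of all genes tested 2.47% were at least 2-fold lower, and their median was 0.03.

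Of the 12038 genes, 297 (2.47%) were at least 2-fold lower and 138 (1.15%) at least 2-fold higher with siRNA1, counted by size as a difference of 1 or more in log2(FPKM + 1) between the sample means. The median gene differed by 0.03, and 85.7% of genes stayed within 1.5-fold. A 4-fold difference was reached by 15 lower and 5 higher genes. The replicate columns of the 2 samples did not overlap in 295 of the 297 and 135 of the 138 genes. Such separation is common at any size. Both siRNA1 columns lay below both control columns in 37.3% of genes and above them in 42.5%, and columns of 1 sample differed little (median gap 0.06 in the control and 0.08 with siRNA1, against a median difference of 0.23 between the samples). Columns that do not overlap therefore say little here, and size is what the counts rest on. Lower genes were the larger share at every level, 1.72% lower against 0.422% higher among genes of 1 to 5 FPKM and 2.96% against 1.93% at 100 FPKM and above. In the authors' deposited table, 530 of these genes have a log2 fold change of 1 or more downward and 255 upward, and 76.7% have a q-value under 0.05, including all 297 and 138. With a pseudocount of 0.1 in place of 1, 508 genes were at least 2-fold lower and 233 higher.

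**Figure D1:**
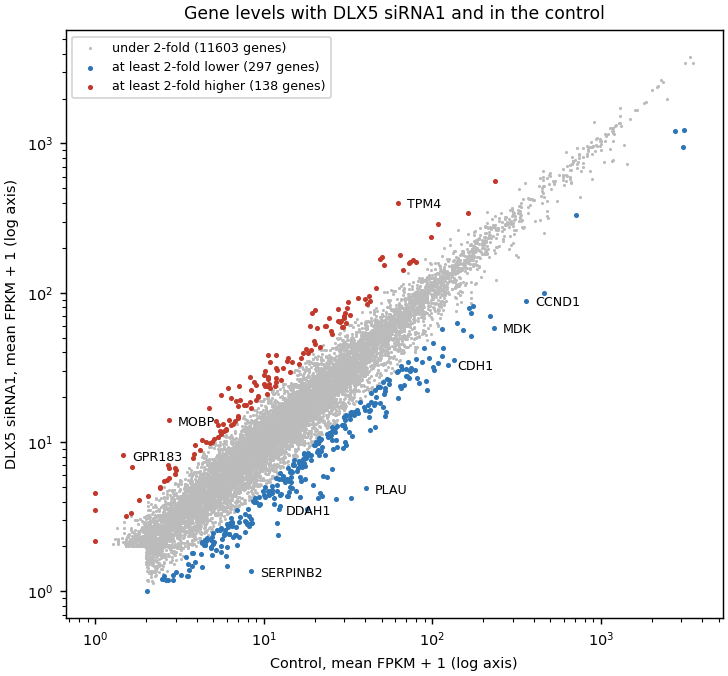
Each point is 1 of the 12038 genes, placed by its mean FPKM + 1 in the control (x, log axis) and with DLX5 siRNA1 (y, log axis). The 297 genes at least 2-fold lower are blue, among them CCND1, MDK and CDH1, and the 138 at least 2-fold higher are red.

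PLAU, the urokinase plasminogen activator (chromosome 10, 75670859 to 75677259, plus strand), read 40.7 and 38.00 FPKM in the control and 3.87 and 3.91 with siRNA1, a log2 difference of -3.04, with 4.5 and 4.25 with siRNA2. SERPINB2, an inhibitor of PLAU, read 7.75 and 6.98 against 0.44 and 0.29 FPKM. FGFBP1, a carrier that releases fibroblast growth factors, read 90.5 and 94.04 against 21.3 and 21.1 FPKM, and the retinoic acid-induced surface protein GPRC5A 11.3 and 10.8 against 1.54 and 1.26. In each of these 4 genes the siRNA2 columns lay far below the control too, at 0.64 and 0.56 FPKM for SERPINB2, 25.6 and 26.4 for FGFBP1 and 2.67 and 2.5 for GPRC5A.

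CRIM1, a membrane protein that binds BMPs (chromosome 2, 36583370 to 36778278, plus strand), read 33.8 and 30.01 FPKM in the control, 3.36 and 3.12 with siRNA1 and 17.4 and 17.8 with siRNA2, so that it was 9.85-fold lower with siRNA1 and stood between with siRNA2. MAN2A1, a Golgi mannosidase that trims N-glycans, read 21.6 and 20.7 FPKM in the control, 3.52 and 3.24 with siRNA1 and 8.0 and 8.16 with siRNA2. CCND1, the G1 cyclin D1, read 363 and 350.1 FPKM in the control, 86.5 and 88.3 with siRNA1 and 157 and 160.0 with siRNA2. TRIM47, a ubiquitin ligase, read 10.9 and 11.01 FPKM in the control, 1.69 and 2.09 with siRNA1 and 5.04 and 4.44 with siRNA2. MALL, a membrane raft protein, and GADD45B, a stress-induced gene, had log2 differences of -2.34 and -2.03 with siRNA1 and -1.63 and -1.72 with siRNA2.

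Among the higher genes, TPM4, a tropomyosin of the actin cytoskeleton (chromosome 19, 16178317 to 16213813, plus strand), read 61.4 and 60.9 FPKM in the control and 402 and 398 with siRNA1, 6.54-fold higher. GPR183, an oxysterol receptor, read 0.42 and 0.51 against 7.47 and 6.81 FPKM, and MOBP, a myelin-associated gene, 2.09 and 1.39 against 12.6 and 13.4. For both, siRNA2 gave smaller values above the control, 4.05 and 4.15 and 6.93 and 6.74 FPKM. TOMM22, a subunit of the mitochondrial import pore, read 19.6 and 18.9 against 76.9 and 75.5 FPKM, EMC6, a subunit of the membrane protein insertion complex of the endoplasmic reticulum, 19.2 and 17.5 against 73.2 and 71.99, and GANAB, the catalytic subunit of glucosidase II, 49.6 and 49.2 against 174 and 171. With siRNA2 they read 73.6 and 76.6, 69.9 and 68.6 and 169 and 164 FPKM, near the siRNA1 values. SOX21, a transcription factor of the SOX family, read 6.75 and 5.51 against 22.3 and 23.1 FPKM. OGFR, R3HCC1, HDGFRP2, GOLGA2, SART1, SULF1 and HIST1H4J had log2 differences from 1.68 to 1.91. The last of them, a histone gene with near-identical copies, is uncertain: it is listed at 0 in 1 control column and 7.41 FPKM in the other.

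**Figure D2:**
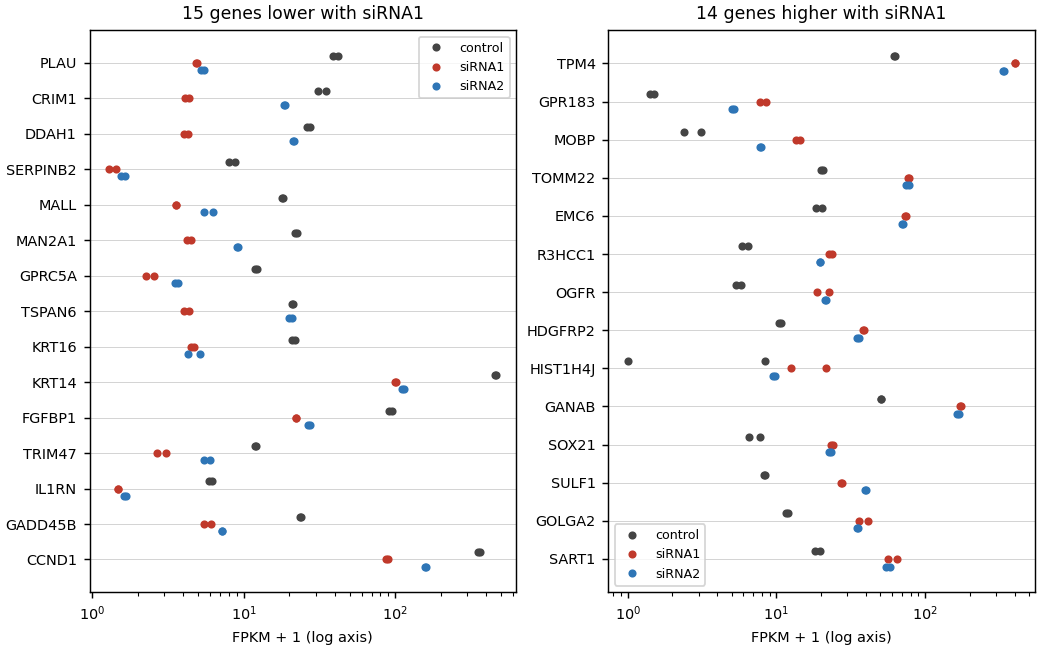
FPKM + 1 (log axis) in both replicate columns of the control, siRNA1 and siRNA2 for the 15 lower (left) and 14 of the 15 higher (right) genes with the largest differences between siRNA1 and the control among those with at least 5 FPKM. The siRNA2 columns of TSPAN6 and DDAH1 lie close to the control, whereas those of PLAU and KRT14 lie beside siRNA1.

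By the rule used here, what siRNA1 did by itself was nearly all downward. Counted as at least 2-fold lower than in the control, at least 2-fold lower than with siRNA2, and with siRNA2 within 1.5-fold of the control, 34 genes (0.282% of all tested) were lower with siRNA1 alone. By the same rule upward there was 1 (0.00831%), DOK3, an adaptor of tyrosine kinase signalling, at 1.44 and 1.4 FPKM in the control, 3.6 and 4.39 with siRNA1 and 1.5 and 1.32 with siRNA2, under 5 FPKM in every column. With a pseudocount of 0.1 the counts were 63 and 12. In the 34 genes the siRNA1 difference ran from -1.03 to -2.69 with a median of -1.29, and the siRNA2 difference from -0.58 to 0.36 with a median of 0.01. The control levels ran from 1.04 to 229.8 FPKM with a median of 29.5. The siRNA2 columns lay above both control columns in 13 of the 34, below both in 13 and overlapped them in 8. The same shares over all genes were not counted for siRNA2, so these counts are a description only. Columns of siRNA1 lay apart from those of both other samples in 33, a pattern that the rule sets for the means. The share of all genes with such separation was not counted, so this count too is a description only. The exception, ATP5J2-PTCD1, is a read-through gene listed at 0 in both siRNA1 columns and in 1 control column and is uncertain.

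The genes of this group were ranked by the smaller in size of the siRNA1 difference from the control and that from siRNA2, and 10 of them are described first. DDAH1, which breaks down methylated arginine inhibitors of nitric oxide synthase (chromosome 1, 85784168 to 86044046, minus strand), read 26.5 and 25.2 FPKM in the control, 3.31 and 3.02 with siRNA1 and 20.5 and 20.1 with siRNA2, 8.16-fold lower than the control. The tetraspanin TSPAN6 (chromosome X, 99882105 to 99892101, minus strand) read 20.03 and 19.7 FPKM in the control, 3.04 and 3.35 with siRNA1 and 18.8 and 19.9 with siRNA2. MDK, the secreted growth factor midkine (chromosome 11, 46402334 to 46405387, plus strand), read 236 and 223 FPKM in the control, 55.3 and 59.8 with siRNA1 and 216 and 225 with siRNA2. In all 3 the siRNA1 columns are several-fold below the other 4 columns, which lie close together.

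CDH1, the adherens junction protein E-cadherin (chromosome 16, 68771193 to 68869445, plus strand), read 127 and 119 FPKM in the control, 31.7 and 31.9 with siRNA1 and 106 and 102 with siRNA2. CLDN1 and CLDN4, tight junction claudins, were also at least 2-fold lower with siRNA1 and had log2 differences of -1.55 and -1.69 with siRNA2. HMGA2, a chromatin protein, read 83.5 and 81.1 FPKM in the control, 24.8 and 23.4 with siRNA1 and 78.2 and 79.96 with siRNA2, and the collagen chaperone SERPINH1 222 and 217 in the control, 67.5 and 70.7 with siRNA1 and 235 and 226 with siRNA2. The lysosomal sialidase NEU1 and the RNA-binding protein HNRNPF had siRNA1 differences of -1.94 and -1.71 and siRNA2 differences of 0.04 and 0.04. MAGED2, a melanoma antigen family member, and YWHAH, a 14-3-3 adaptor, were lower with siRNA1 (-1.93 and -1.76) while their siRNA2 columns lay above the control (0.18 and 0.27). The other 24 genes hold SREBF2, the regulator of cholesterol synthesis (31.1 and 31.1 FPKM in the control, 10.2 and 11.3 with siRNA1, 32.3 and 31.2 with siRNA2), and WWTR1, the YAP partner TAZ (13.5 and 13.3 FPKM, then 4.58 and 4.3, then 12.9 and 13.7, in the same order).

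**Figure D3:**
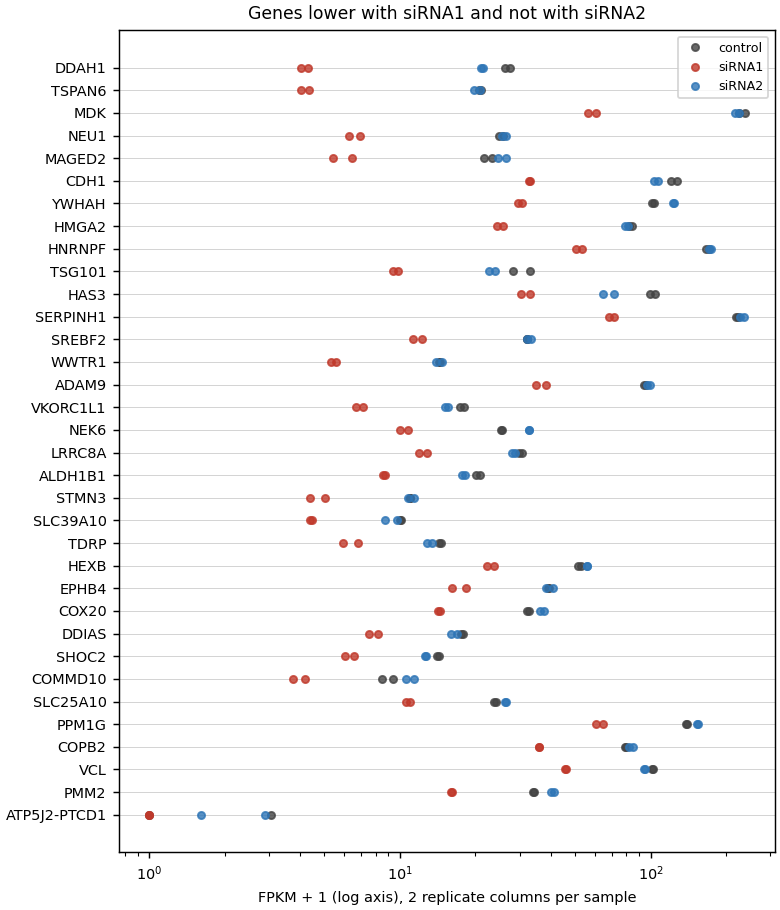
FPKM + 1 (log axis) of the 34 genes lower with siRNA1 alone, 2 replicate columns for each of the control, siRNA1 and siRNA2. In 33 genes both siRNA1 columns lie to the left of all 4 others; the rule that chose the genes sets this pattern for the means.

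The 3′ UTRs of these genes shared a short word. All 7-base words in the 3′ UTR of the 34 genes, 13441 of them, were ranked by the share of the 34 that holds the word minus the share of all 11950 genes with a 3′ UTR in GENCODE v29 (the longest of each gene). The ranking was chosen after the values were seen, and no test goes with it. UCAAUCA came first: it occurs in 22 of the 34 (64.7%) and in 964 of the 11950 (8.07%). The second word, CAAUCAA, overlaps the first in all but 1 base and occurs in 18 (52.9%) against 7.77%; 26 of the 34 (76.5%) hold either, against 12.6% of all. The windows below show the first UCAAUCA, in capitals, in the 3′ UTRs of 10 genes of the group and in the coding part of DLX5, so that the flanking bases can be compared.
DLX5: ugcagccagcUCAAUCAauucccaccu
TSPAN6: guagguugauUCAAUCAagauguaugu
MDK: uuagcuuuaaUCAAUCAugcccugccu
NEU1: ugacugacuaUCAAUCAaaauguuugu
MAGED2: gcagccacuaUCAAUCAauugaaguug
YWHAH: ucagcccaugUCAAUCAagauggguga
HMGA2: ugaaagaacaUCAAUCAauuuagggca
HNRNPF: uugaguuacuUCAAUCAuuuucacagg
SERPINH1: caagccugccUCAAUCAguauucauau
SREBF2: uucuugauguUCAAUCAaucagucacu
WWTR1: uaguacuaaaUCAAUCAguaaacauca

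Outside the 3′ UTR the word was looked for in DLX5 only, so no share of all genes stands beside its site there. An annotated coding transcript of DLX5, of 1074 bases, holds neither word. In the DLX5 transcript used here the word stands at base 1004 of 1422, before the 3′ UTR of 344 bases, followed by A as in the second word. The same following A is seen in TSPAN6, NEU1, MAGED2, YWHAH, HMGA2 and SREBF2 but not in MDK, HNRNPF, SERPINH1 or WWTR1. DDAH1 and CDH1, among the most lowered genes of the group, do not hold UCAAUCA. CDH1 holds CAAUCAA, and 8 of the 34 hold neither word. Whether the word is the complement of a siRNA1 seed was not tested, since no source used here gives the siRNA sequence.

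The word was chosen on the 34 genes, so the shares over the difference between the siRNAs are given without them. The share with UCAAUCA was 53.8% (7 of 13) where siRNA1 lay at least 1 below siRNA2 in log2(FPKM + 1), 25.4% (100 of 393) from -1 to -0.5, 9.97% (511 of 5126) from -0.5 to 0, 5.16% (315 of 6107) from 0 to 0.5 and 3.25% (9 of 277) above 0.5. With the 34 genes the first of these shares is 61.7% (29 of 47), and 22 of those 29 holders chose the word. The 942 other holders had a median siRNA1 difference of -0.09 from the control and a median siRNA2 difference of 0.01, and the 10974 genes without it 0.04 and 0.01. Holders of 2 or more copies had a median siRNA1 difference from the control of -0.18 (113 genes), and holders of 1 copy -0.08 (829 genes). For the 284 holders of the 8-base word UCAAUCAA it was -0.16. Relative to siRNA2 these medians were -0.13, -0.09 and -0.13, in the same order. The groups were not matched for 3′ UTR length. Among 15909 words with at least 100 holders outside the 34 genes, UCAAUCA had rank 3 and CAAUCAA rank 5 from the lowest median difference between siRNA1 and siRNA2, at -0.10 and -0.09; the 2 words ranked above it, CGUGCGU and ACCCGCG, have 161 and 119 holders. These medians are small beside the 2-fold used for calls.

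The word was less frequent in the other called genes. It was in 37 of the 261 other genes at least 2-fold lower with siRNA1 (14.2%) and in 5 of 137 higher genes with a 3′ UTR (3.65%). The 34 genes have longer 3′ UTRs than all genes, with medians of 1758 and 1351 bases. Among the other genes with 3′ UTRs between their quartiles, 815 and 2647 bases, 6.08% hold the word. With the shortest annotated 3′ UTR of each gene in place of the longest, 14 of the 34 (41.2%) and 3.42% of all held it.

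**Figure D4:**
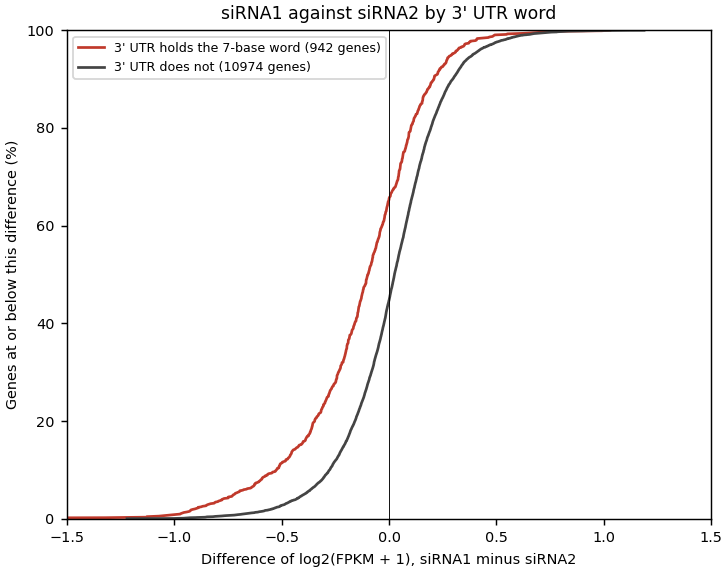
Cumulative share of genes (y, percent) by the difference of log2(FPKM + 1) between siRNA1 and siRNA2 (x), for the 942 genes whose 3′ UTR holds UCAAUCA and the 10974 that do not, without the 34 genes that chose the word. The curve of the holders lies to the left, with medians of -0.10 and 0.03.

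The words UCGGAGA and ACUCAGU, which earlier results of these data had brought up, were looked up too. No holder was left out, so genes that brought up a word can be among its holders. The shares and medians are therefore a description and no separate support. The 252 holders of UCGGAGA had median differences of 0.14 with siRNA1 and 0.14 with siRNA2, and 17 of them (6.75%) were at least 2-fold higher with siRNA1 and 5 (1.98%) lower. Of the 11698 genes without it 1.03% were higher and 2.48% lower, with medians of 0.03 and 0.01. The 1502 holders of ACUCAGU had medians of -0.06 and -0.11, with 48 (3.2%) lower and 6 (0.399%) higher with siRNA1. The 10448 genes without it had medians of 0.04 and 0.02, with 2.36% lower and 1.25% higher.

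The lists below were drawn up with results of these data known, so their direction is described and not tested; counts are to be read against the 2.47% lower and 1.15% higher of all genes and their median of 0.03. More squamous and basal genes lay below the control than above it, 14 of 17 and 21 of 25 tested. Of 17 tested squamous differentiation genes 5 were at least 2-fold lower and 0 higher, with a median of -0.56. KRT13, a keratin of the esophageal lining, read 49.1 and 53.5 FPKM in the control and 14.4 and 13.3 with siRNA1, and SPRR1B, a cornified envelope precursor, 16.5 and 16.6 against 4.17 and 5.14. The median of this list was -0.17 among genes of at least 5 FPKM. Of 25 basal keratinocyte and hemidesmosome genes 9 were lower and 1 higher, with a median of -0.51. KRT17 read 3033 and 3081 FPKM in the control and 929.7 and 964 with siRNA1, KRT14 466 and 456 against 98.2 and 99.9, and KRT5 3138 and 3116 against 1236 and 1220.2. These keratins share stretches with near-identical copies, among which reads can be split. The integrins ITGA3 and ITGA6, which anchor basal cells, read 75.4 and 71.7 against 30.5 and 29.8 FPKM for ITGA6 and 68.8 and 68.8 against 29.3 and 30.7 for ITGA3; PERP, a desmosomal p53 target, was higher at 97.3 and 95.5 against 248 and 225.

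Of 29 squamous transcription factors 8 were at least 2-fold lower and 1 higher, with a median of -0.43. TP63, the master factor of squamous epithelium, read 94.7 and 89.5 FPKM in the control and 89.7 and 91.5 with siRNA1, so its columns overlapped. SOX2 read 218 and 205 against 279.6 and 265 FPKM, a difference of 0.36. Lower were GRHL3, a regulator of barrier formation (19.7 and 20.1 against 7.8 and 7.9 FPKM), OVOL1, a repressor in epithelial differentiation (7.32 and 6.25 against 1.72 and 2.13), and NOTCH1, a receptor that drives differentiation (15.4 and 15.3 against 5.88 and 6.24). MYC, a growth-promoting factor, read 70.7 and 68.3 FPKM in the control, 26.8 and 26.8 with siRNA1 and 48.1 and 47.4 with siRNA2. For NOTCH1, siRNA2 gave 11.1 and 11.5 FPKM, also between the control and siRNA1.

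NF-kB targets and cytokines had the lowest median of any list with 5 or more tested members, -0.82, with 9 of 25 tested genes lower and 0 higher. IL23A, a cytokine subunit, read 13.97 and 12.5 FPKM in the control and 3.68 and 4.39 with siRNA1, the interleukin 1 antagonist IL1RN 5.15 and 4.92 against 0.47 and 0.47, and the apoptosis inhibitor BIRC3 5.92 and 5.98 against 0.96 and 1.11. The others were CCL20, CSF2, EBI3, IL1A, IL1B and TRAF1, all under 6 FPKM in the control. Among 28 EGFR and MAPK genes 8 were lower and 0 higher (median -0.38). EGFR itself read 154 and 147 FPKM against 55.1 and 55.6, and DUSP4, a phosphatase induced by MAPK, 6.03 and 5.47 against 1.29 and 1.45. Of 14 AP-1 genes 2 were lower: FOSL1 at 64.6 and 64.3 against 21.3 and 23.1 FPKM and JUNB at 79.8 and 75.8 against 29.1 and 29.8, with siRNA2 at 40.3 and 44.3 and 37.7 and 38.2. Of 20 plasminogen and protease genes 5 were lower and 0 higher, with a median of -0.49.

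**Figure D5:**
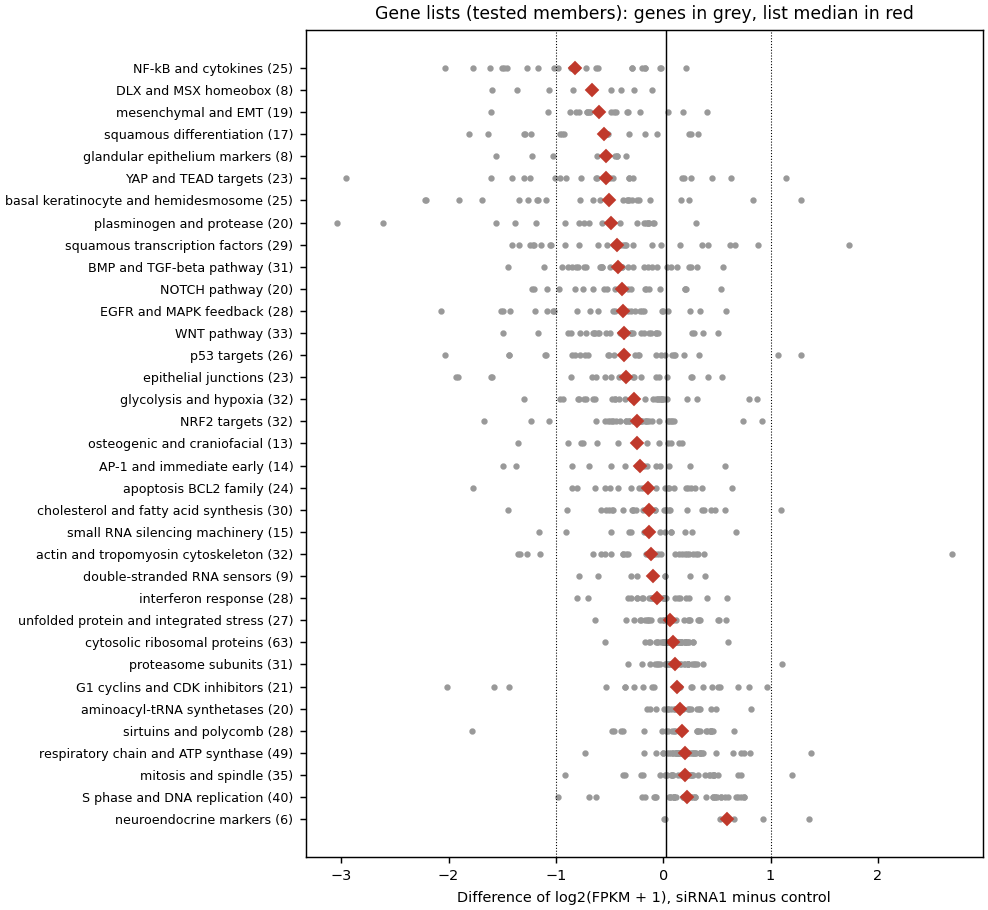
Difference of log2(FPKM + 1) between siRNA1 and the control (x) for the tested members of each list (y, number of tested members in parentheses), lists with 5 or more tested members. Grey points are genes, red diamonds list medians, the solid line the median of all genes (0.03) and the dotted lines a 2-fold difference. The lowest median is that of NF-kB and cytokines at -0.82, and the S phase list lies at 0.22 with 0 members past either dotted line.

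Among cell cycle genes the largest differences were in G1 genes. Of 21 G1 genes 3 were lower (CCND1, CDKN1A and CDKN1C) and 0 higher, with a median of 0.13 and 11 above the control. CDKN1A, the p21 inhibitor, read 64.2 and 62.1 FPKM in the control and 21.1 and 24.3 with siRNA1, and CDKN1C, the p57 inhibitor, 14.4 and 13.03 against 3.7 and 4.15. The 40 S phase genes had a median of 0.22, with 32 above the control and 0 past 2-fold in either direction, and the 35 mitosis genes a median of 0.21 with 1 higher, BIRC5 (survivin), at 28.8 and 28.6 against 65.6 and 68.6 FPKM. Of 26 p53 targets 5 were lower and 2 higher.

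Of 23 tested genes in the list of YAP and TEAD targets 6 were lower and 1 higher (median -0.53). Among the lower were CRIM1 and WWTR1, which differ between the siRNAs as given above. WWTR1 is the YAP partner TAZ, so the list does not hold targets only. NUAK2, a kinase, read 10.5 and 10.01 FPKM against 3.35 and 3.78, and the receptor kinase AXL 16.2 and 15.2 against 4.25 and 4.73; their siRNA2 differences were -1.16 and -1.28. Of 23 epithelial junction genes 4 were lower and 0 higher (median -0.35), and of 19 mesenchymal genes 2 were lower and 0 higher (median -0.60), so both lists lay below the median of all genes. Of 20 NOTCH genes 3 were lower, of 33 WNT genes 2, and of 31 BMP and TGF-beta genes 2, with 0 higher in each. BMP6 read 4.01 and 4.38 FPKM in the control and 1.03 and 0.78 with siRNA1, and HES2, a NOTCH-family repressor, 9.08 and 10.3 against 3.22 and 3.97. SIRT1, a deacetylase, was the only one of 28 sirtuin and polycomb genes past 2-fold, at 11.4 and 11.01 against 2.68 and 2.44 FPKM.

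Lists on RNA delivery and housekeeping showed few such genes. Of 28 interferon response genes 0 were lower and 0 higher, with a median of -0.06, and of 9 tested sensors of double-stranded RNA 0 and 0. EIF2AK2, the kinase PKR, read 19.6 and 19.96 FPKM in the control and had a log2 difference of -0.79 with siRNA1 and -0.16 with siRNA2. Of 15 genes of the small RNA silencing machinery TNRC6A, a partner of Argonaute, was at least 2-fold lower, at 28.1 and 27.9 FPKM against 12.01 and 11.96, with 20.4 and 20.4 with siRNA2. Short of 2-fold, AGO2 and AGO3 had differences of -0.91 and -0.49 with siRNA1 and -0.20 and 0.05 with siRNA2. DROSHA lay above the control, at 0.68 and 0.46. In this list 9 genes lay below the control with siRNA1 and 6 above. None of the 27 unfolded protein and stress genes, 20 aminoacyl-tRNA synthetases or 63 cytosolic ribosomal protein genes passed 2-fold (medians 0.06, 0.16 and 0.09). Of 31 proteasome genes 1 was higher, the ATPase subunit PSMC3 (74.8 and 75.9 against 163 and 165 FPKM). Of 30 cholesterol and fatty acid genes SREBF2 was lower and PMVK higher, and of 32 actin genes 4 were lower and TPM4 higher.

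Endothelial, immune and fibroblast markers lay mostly under 1 FPKM, while glandular and neuroendocrine lists held abundant genes. Fewer cells of a type cannot be told apart from less RNA per cell in a bulk sample. None of the 8 endothelial markers reached 1 FPKM, and 2 of 12 immune and 3 of 12 fibroblast markers in the table did. The glandular keratin KRT7 read 7.14 and 7.78 FPKM against 1.49 and 2.27 and KRT19 172 and 166 against 72.9 and 70.7; 8 glandular markers were tested, 3 were lower, and the summed FPKM of the list was 1564 in the control, 1023 for siRNA1 and 1178 for siRNA2. Of 6 tested neuroendocrine markers, SCG2, a granin, was higher at 12.6 and 12.7 against 34.1 and 33.9 FPKM, and the 13 in the table summed to 381.7 FPKM in the control, 439.4 for siRNA1 and 416.4 for siRNA2. Their part in the results was not tested.

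Promoters, taken from the RefSeq table (GRCh38.p14) as 250 bases before to 50 after each gene's start, were found for 215 of the 297 lower, 111 of the 138 higher and 9922 of all tested genes. The letters TGANTCA, the AP-1 site, occurred on either strand in 10.2% of lower, 6.31% of higher and 4.32% of all tested promoters. The NF-kB consensus occurred in 12.6%, 5.41% and 6.55%. TAATTA, a homeobox core, occurred in 0.93% of lower (2 of 215), 1.8% of higher (2 of 111) and 1.71% of all tested promoters (170 of 9922). The shares of lower and higher genes thus rest on 2 promoters each. Such a match is a description of letters in this window.

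The promoters of IL23A and SERPINB2, chosen after their values were seen as lower genes that hold these letters, are shown with every match in capitals. That of IL23A (chr12:56338634-56338933, plus strand) holds an NF-kB match that begins at position -95 and TGAGTCA at -77 relative to the start, without overlap. That of SERPINB2 (chr18:63887455-63887754, plus strand) holds TGAATCA at -102.
IL23A: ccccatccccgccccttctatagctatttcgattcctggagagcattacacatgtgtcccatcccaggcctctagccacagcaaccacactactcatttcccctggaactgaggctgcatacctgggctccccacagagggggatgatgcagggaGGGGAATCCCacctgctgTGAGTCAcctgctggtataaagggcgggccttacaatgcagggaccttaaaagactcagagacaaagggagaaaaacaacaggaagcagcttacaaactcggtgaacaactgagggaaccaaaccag
SERPINB2: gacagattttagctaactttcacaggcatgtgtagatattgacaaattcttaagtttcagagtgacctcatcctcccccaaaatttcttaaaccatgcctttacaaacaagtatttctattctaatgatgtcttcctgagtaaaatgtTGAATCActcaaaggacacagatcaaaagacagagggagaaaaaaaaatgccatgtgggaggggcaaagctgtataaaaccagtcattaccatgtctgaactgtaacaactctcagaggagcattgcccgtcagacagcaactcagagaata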

How the data were processed

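The labels give 3 KYSE140 samples, 1 per group, and the authors deposited 1 gene table for them. Per the file headers, its values are FPKM in replicate columns and as sample means, beside the authors' own log2 fold changes, p-values and DEGseq q-values. Tools listed in the submitters' processing notes, with no roles, are RSEM 1.2.12, HISAT2 2.0.4, Bowtie2 2.2.5 and DESeq 3.4, and the build is hg19. The sources used here do not state strandedness. Where the series' design text names retinal RNA, in triplicate, the sample labels were followed instead. FPKM is a share of depth, so a few abundant genes can shift all others.

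Of 19280 lines, 14 had no gene ID and 2047 genes no value, and these were left out. Of the remaining 17219 IDs, 17182 matched the name table, and 26 symbols that had become dates were restored. Of the per-sample columns, 2 share 1 heading and were not used, so column 1 of each siRNA sample was computed as 2 times the mean minus column 2. Differences, and calls of at least 2-fold, past 2-fold or within 1.5-fold, are of log2(FPKM + 1), which understates changes of low genes. Folds printed for a single gene, such as 3.58-fold for DLX5, are of FPKM. A gene past 2-fold in FPKM can thus go uncalled. DLX1 and CA12 were 2.10-fold and 8.17-fold lower in FPKM with siRNA1, and CDKN2C 2.19-fold higher, without a call. Genes with at least 1 FPKM in either mean were kept. With FPKM and 1 sample per group, genes were called by size and not tested. At the fitted depths, 88.4% to 91.7% of low values of short genes lay within 0.2 of whole reads. As an alternative, limma 3.58.1 in R 4.3.3 was run on the replicate columns, where p-values measure the spread within samples, which may be technical. limma was also run on data simulated with the spread of the replicate columns. Such data cannot show how it does with spread between samples.

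Named genes were DLX5, DLX6, TP63, SOX2 and MYC; the 15 lower and 15 higher genes with the largest difference, at least 5 FPKM in either mean and columns that do not overlap; up to 4 members of each of 39 lists with the largest difference; and the first 10 lower and 10 higher genes with siRNA1 alone, ranked by the smaller of the differences to the control and to siRNA2. KRT5, ITGA3, ITGA6, DOK3, ATP5J2-PTCD1 and list members past 2-fold given by symbol only are outside this rule or were named after their values were seen. A few genes that the rule takes are not reported here. Members, lists and words were chosen with earlier results of these data known. GENCODE v29, of another build, was used for 3′ UTR sequence only. Alternatives were a pseudocount of 0.1, no filter or 5 FPKM, median scaling, quantile normalization, leaving out each replicate column, non-overlapping columns, limma and the authors' fold changes; the word ranking, the shortest 3′ UTR and a limma fit with the column number as a block were added after seeing the data.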

Additional observations from a re-analysis of the deposited data

Results flagged for a closer look

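Genes that the naming rule takes and that were at least 2-fold lower with siRNA1 were set apart here by their columns. Their siRNA1 columns lay below both control columns and their siRNA2 columns above both. Separate columns say little here. At any size, both siRNA1 columns lay below both control columns in 37.3% of all genes and above them in 42.5%. The same shares were not counted for siRNA2. For SREBF2 the siRNA2 columns read 32.34 and 31.19 FPKM, against 31.13 and 31.05 in the control. With 1 sample per group the difference was not tested, and the siRNA2 differences are small. MAGED2 had a log2(FPKM + 1) difference of -1.93 with siRNA1 and 0.18 with siRNA2, YWHAH -1.76 and 0.27, SERPINH1 -1.65 and 0.07, ADAM9, a membrane metalloprotease, -1.38 and 0.05, and SREBF2 -1.45 and 0.03. Of these 5, MAGED2, YWHAH, SERPINH1 and SREBF2 hold UCAAUCA in the 3′ UTR and ADAM9 does not. All 5 belong to the 34 genes on which the word was chosen, of which 22 hold it, so this is no separate support. Of all genes with a 3′ UTR 8.07% hold the word.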

How the results depend on the processing

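With 1 sample per group no difference could be tested, and low genes are limited by depth and by the pseudocount. With a pseudocount of 0.1, 508 genes were at least 2-fold lower and 233 higher, 63 were lower and 12 higher with siRNA1 alone, and DLX5 differed by -1.81. In the authors' deposited table, 530 genes were lower and 255 higher by 1 or more. limma over replicate columns gave 3425 lower and 3840 higher genes of any size (Benjamini-Hochberg adjusted p under 0.05). After median scaling the counts were 337 and 111, within 1.5 times, and the DLX5 difference was -1.64; after quantile normalization it was -1.58. The lower share of all called genes was 68.3%, and 75.2% after median scaling. The single gene higher with siRNA1 alone became 0 with at least 5 FPKM and 2 after quantile normalization. Leaving out each column in turn gave 293 to 321 lower and 136 to 150 higher genes, 33 to 38 lower and 0 to 3 higher with siRNA1 alone (0 without siRNA1 column 2 and 3 without siRNA1 column 1), and DLX5 differences from -1.60 to -1.59. The 34 genes kept 33 with a pseudocount of 0.1 and after median scaling, and 31 after quantile normalization. No named gene past 2-fold and no list median of 0.1 or more in size changed sign under these settings. The median of the squamous differentiation list went from -0.56 to -0.17 with at least 5 FPKM. With the column number as a replicate block, chosen after seeing the data, limma gave 3401 lower and 3802 higher genes; no label says that the numbers pair the columns, and the deviations of same-numbered columns had a correlation of -0.034 across genes.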

Other observations

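The lists that remain had few members past 2-fold. Of 32 tested NRF2 targets 3 were at least 2-fold lower and 0 higher (median -0.25), among them HMOX1, heme oxygenase, and the transporter ABCC3. Of 32 glycolysis and hypoxia genes 1 was at least 2-fold lower in log2(FPKM + 1), the lactate transporter SLC16A3 (median -0.27). CA12 and NDRG1 fell just short of this call at -0.93 and -0.96. Their mean FPKM went from 1.19 to 0.15 and from 17.5 to 8.48. In this list 26 genes lay below the control and 6 above. Of 24 BCL2-family and apoptosis genes 1 was lower, BIRC3 (median -0.14). Of 13 osteogenic and craniofacial genes, among which DLX5 is known to act, FOXC2 was lower and 0 were higher, with a median of -0.24. Of 10 retinal markers in the table, looked at because the series' design text names retina, 2 reached 1 FPKM in either sample, and the list summed to 4.49 FPKM in the control and 4.24 with siRNA1.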
